A study of Mus musculus with 10 samples.

Results

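To follow the transcription factor *Zfp423* together with its paralogue and its best known partners through gliomagenesis, the mRNA levels of 6 genes were read in 10 RNAseq libraries of mouse cells. The genes are *Zfp423*, *Zfp521*, *Ebf1*, *Ebf2*, *Ebf3* and *Ebf4*. They were chosen by their symbols, each matched 1 row, and they make up 6 of the 23230 features measured. All libraries come from C57BL/6 cortical astrocytes, of postnatal day 5 by the labels and of a range of days from day 5 by the study. The astrocytes lack p16/p19 (the products of *Ink4a/Arf*) and carry the human receptor mutant EGFRvIII, brought in with a retrovirus. The cells of all libraries were used below passage 10. The 3 AstroEGFR libraries are 3 batches of these astrocytes grown with serum. The 4 PT libraries are glioma propagating cells taken from primary tumours that the astrocytes formed in CD1 Nude mice, and they were grown without serum on laminin with EGF and FGF2. By the study, PT1 and PT4 came from astrocytes of batch 1, and PT2 and PT3 from those of batches 2 and 3. The 3 AstroEGFR Zfp423 libraries are batches 1 to 3 of the astrocytes infected with a *Zfp423* vector, which the labels call lentiviral and the study retroviral, and no culture with an empty vector is among the samples. In PT the passage through a tumour and the change of medium cannot be told apart.

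ZFP423 and ZFP521 are large nuclear proteins with many C2H2 zinc fingers, arranged in clusters that bind different partners. ZFP423 binds SMAD proteins when bone morphogenetic proteins (BMPs) signal and helps to switch on BMP target genes, and it also binds EBF factors and can hold them inactive. It is known for its part in the olfactory and cerebellar lineages and in commitment to fat cells, and ZFP521 for keeping immature neural, blood and mesenchymal cells undifferentiated and for its antagonism to EBF1. The EBF proteins bind DNA as dimers. EBF1 is required for the B cell lineage and is also made in mesenchymal cells and pericytes, EBF2 marks precursors of brown fat, EBF3 acts in neuronal differentiation, and EBF4 is the least studied.

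Sequence before the annotated start sites is shown for the members that have it, since EBF factors and ZFP423 could in principle act on each other's genes. RefSeq windows of assembly GRCm38.p6 were found for 4 of the 6 members, as 6 start sites. In each, the 250 bases before the start were searched on both strands for the palindromic EBF core CCCNNGGG and for the ZFP423 core GCACCC, which can overlap. Matches are in capitals and all other bases in lower case, read 5′ to 3′ on the strand of the gene. For *Zfp423* the first sequence lies before the outermost start of the gene at chr8:87959596-87959845 on the minus strand, outside any of its transcripts. The second, at chr8:87804440-87804689, lies wholly in an intron before an internal start. The *Ebf3* sequence at chr7:137314446-137314695, minus strand, lies outside the gene. The *Ebf4* sequence at chr2:130295689-130295938 and the *Ebf1* sequence at chr11:44619978-44620227, both plus strand, are intronic by GENCODE M21. The other *Ebf1* window is exonic and is not printed.
Zfp423, outermost start: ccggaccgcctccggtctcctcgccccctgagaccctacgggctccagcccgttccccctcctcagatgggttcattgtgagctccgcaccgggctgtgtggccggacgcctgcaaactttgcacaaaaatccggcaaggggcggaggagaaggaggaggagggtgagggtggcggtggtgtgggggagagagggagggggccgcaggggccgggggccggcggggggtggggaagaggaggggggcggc
Zfp423, internal start: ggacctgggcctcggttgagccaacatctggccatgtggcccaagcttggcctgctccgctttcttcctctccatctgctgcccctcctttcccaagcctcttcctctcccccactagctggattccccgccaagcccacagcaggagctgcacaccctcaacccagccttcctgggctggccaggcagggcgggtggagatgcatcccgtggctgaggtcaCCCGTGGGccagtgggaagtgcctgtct
Ebf3: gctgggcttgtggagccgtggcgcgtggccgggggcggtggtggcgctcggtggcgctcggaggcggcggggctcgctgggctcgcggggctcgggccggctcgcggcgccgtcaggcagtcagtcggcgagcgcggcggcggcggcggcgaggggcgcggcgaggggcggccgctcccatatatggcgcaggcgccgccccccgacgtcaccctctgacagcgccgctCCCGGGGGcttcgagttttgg
Ebf4: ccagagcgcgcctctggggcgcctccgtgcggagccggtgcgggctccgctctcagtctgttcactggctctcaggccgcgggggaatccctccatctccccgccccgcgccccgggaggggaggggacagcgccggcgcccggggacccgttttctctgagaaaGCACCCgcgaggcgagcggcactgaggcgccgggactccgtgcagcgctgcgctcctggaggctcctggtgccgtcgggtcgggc
Ebf1, intronic: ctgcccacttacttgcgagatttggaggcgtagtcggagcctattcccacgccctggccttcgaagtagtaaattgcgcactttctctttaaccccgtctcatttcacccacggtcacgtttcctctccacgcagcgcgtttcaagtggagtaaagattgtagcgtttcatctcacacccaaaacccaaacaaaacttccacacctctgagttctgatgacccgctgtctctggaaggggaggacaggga
The EBF core was found before the internal start of *Zfp423*, with its first base 28 bases from the start, and before *Ebf3*, 21 bases from the start. It was present in 11.8% of all 32851 windows of this length. The ZFP423 core was found before *Ebf4*, 85 bases from the start, and in the *Ebf1* window that is not printed, 245 bases from the start, against 13.3% of all windows. The windows of *Ebf3*, *Ebf4* and the internal start of *Zfp423* held 80%, 75.2% and 64.8% G and C, and the exonic *Ebf1* window 40%. The median over all windows was 52.4%, and the shares were not adjusted for this. The matches are letters in a window, and no binding was measured here.

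The levels below are FPKM, which count the sequenced fragments of a transcript relative to its length and to the size of the library, so that they can be compared between genes. The deposited values hold no counts, so the depth is unknown. The libraries differed in kind. Their FPKM summed to between 361102 and 860068, and small RNAs and histone mRNAs made up 0.844%, 29.7% and 4.88% of the sum in AstroEGFR 1 to 3, 0.801%, 34.4%, 6.12% and 1.10% in PT1 to PT4, and 35.8%, 36.1% and 54.8% in the vector libraries, so that these 3 and PT2 were the highest. The part of this in the results was not tested, beyond a rescaling without these features that changed no call of the 6 genes. Features listed at 0 made up 26.7% to 32.0% in 8 libraries, 36.2% in AstroEGFR 3 and 39.4% in PT3. *Gapdh*, which every cell uses, was listed between 0.0106 and 50.1 FPKM, so a value at or near 0 may be a failed estimate. A value of 0 is called listed at 0. *Xist* was at 20.4 to 34.9 FPKM in the 3 libraries of batch 2 and at most 0.0403 FPKM in the other 7, which sets batch 2 apart in the way the labels do and does not separate batches 1 and 3. Over 12287 features, none of the 3 AstroEGFR Zfp423 libraries had its highest correlation with the parental library of its own number. For AstroEGFR Zfp423 3 the own batch gave the lowest value, r = 0.804, against 0.907 with AstroEGFR 2 and 0.830 with AstroEGFR 1. Astrocyte markers were measured in every library, and their summed level was lowest in AstroEGFR Zfp423 2, at 84.5 FPKM against 346 to 1161 FPKM in the other 9.

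In AstroEGFR, *Zfp521* was the most abundant of the 6 genes in each library, and *Zfp423* was present at a low, even level. *Zfp521* stood at 26.4, 20.2 and 20.6 FPKM in batches 1, 2 and 3. *Zfp423* stood at 4.30, 3.25 and 3.48 FPKM. The ratio of *Zfp521* to *Zfp423* was therefore much the same in the 3 batches, at 6.13 in batch 1, 6.20 in batch 2 and 5.91 in batch 3. The EBF genes varied far more between the same libraries. *Ebf1* was at 0.842, 4.44 and 11.99 FPKM, a spread of 14.2-fold between the lowest and the highest batch, whereas *Zfp423* and *Zfp521* spread 1.32-fold and 1.31-fold. *Ebf2* was at 4.91 FPKM in AstroEGFR 3 and at 0.179 and 0.0654 FPKM in the other 2. *Ebf3* was at or near 0, with at most 0.0324 FPKM. *Ebf4* was at 1.73, 1.12 and 2.03 FPKM. By group mean the order was *Zfp521*, *Ebf1*, *Zfp423*, *Ebf2*, *Ebf4* and *Ebf3*, and the ranges overlapped between *Ebf1* and *Zfp423*, between *Zfp423* and *Ebf2* and between *Ebf2* and *Ebf4*. In PT the order was *Zfp521*, *Ebf4*, *Zfp423*, *Ebf1*, *Ebf3* and *Ebf2*, and all neighbours after *Zfp521* overlapped. In AstroEGFR Zfp423 it was *Zfp423*, *Zfp521*, *Ebf1*, *Ebf4*, *Ebf2* and *Ebf3*, and every pair of neighbours overlapped.

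**Figure D1:**
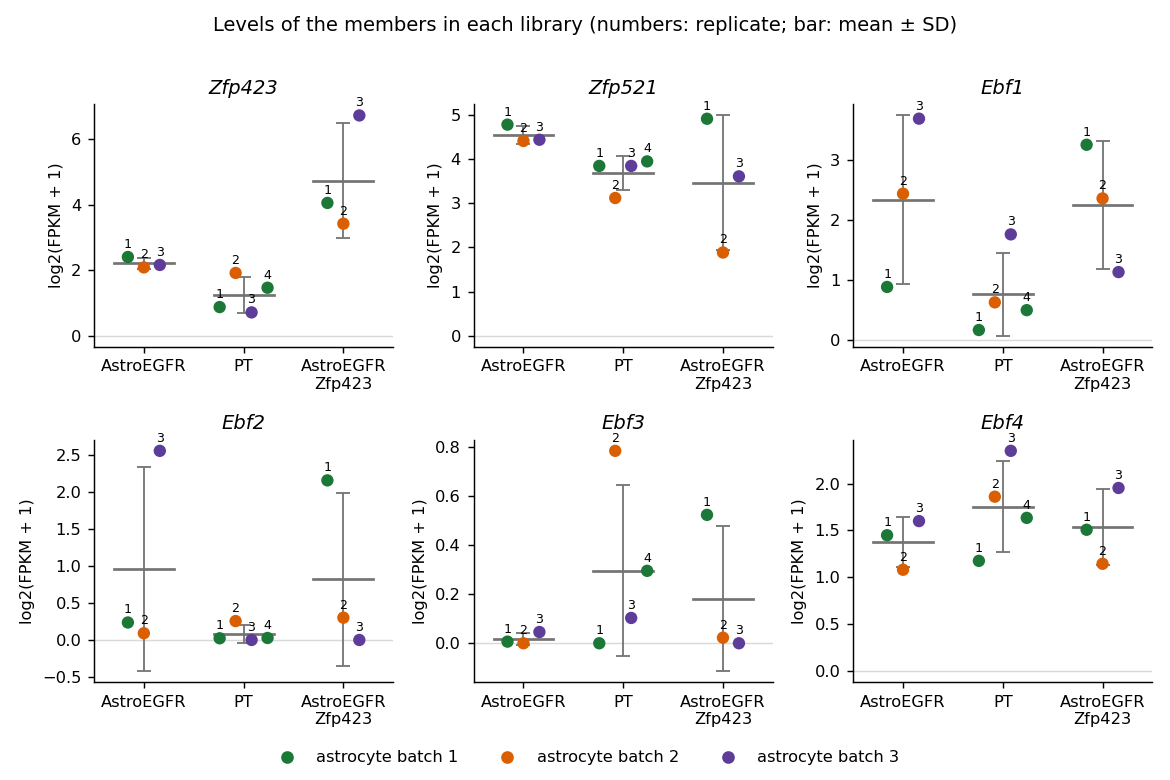
Level of each of the 6 genes in each library as log2(FPKM + 1) on the y axis, with the 3 groups on the x axis. Each point is 1 library, coloured by astrocyte batch and numbered by replicate, and the bar and whiskers are the group mean ± SD (3, 4 and 3 libraries), whose lower end can fall below 0 where values are spread. The 4 PT libraries lie below the 3 AstroEGFR libraries for Zfp423 and Zfp521, and Ebf1 and Ebf2 spread widely in AstroEGFR.

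To ask how the 6 genes differed between AstroEGFR and PT, log2(FPKM + 1) was compared with limma over every feature whose mean reached 1 FPKM, with Benjamini-Hochberg adjustment over these features. *Zfp423* and *Zfp521* were lower in each of the 4 PT libraries than in any of the 3 AstroEGFR libraries, *Ebf1* was lower in each PT than in the astrocytes of its own batch, and *Ebf4* was not. None of the 6 genes passed an adjusted p of 0.05 (0 members called, against 1.24% of the 12261 features tested, 0.318% higher and 0.922% lower in PT). *Zfp423* and *Zfp521* had an unadjusted p below 0.05, as had 13.6% of all features tested. Of the 6 genes, 4 reached the minimum level, and *Ebf2* and *Ebf3* did not and were fitted without that minimum.

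*Zfp423*, the SMAD and EBF partner, stood at 0.837, 2.78, 0.641 and 1.77 FPKM in PT1 to PT4. These values lie below the lowest AstroEGFR value of 3.25 FPKM, with PT2 closest to it. The mean of log2(FPKM + 1) was 1.24 ± 0.55 (SD, n = 4) in PT and 2.22 ± 0.17 (SD, n = 3) in AstroEGFR, a difference of -0.98 (SE 0.38, 95% interval -1.85 to -0.10). The adjusted p of limma was 0.314, and the two-sided exact permutation test of the single gene gave p = 0.0571, where the smallest value that 3 against 4 libraries allow is 0.0286.

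In PT1 to PT4, *Zfp521*, the paralogue, stood at 13.3, 7.66, 13.3 and 14.4 FPKM. They lie below all AstroEGFR values, and here PT2 was the lowest PT library, whereas it was the highest for *Zfp423*. On the log2(FPKM + 1) scale PT had a mean of 3.68 ± 0.38 (SD, n = 4) and AstroEGFR one of 4.54 ± 0.21 (SD, n = 3). The difference was -0.85 (SE 0.27, 95% interval -1.48 to -0.22) with an adjusted p of 0.222 in limma, and the exact permutation test gave p = 0.0286. The groups did not overlap, with PT lower, for these 2 genes and for 7.81% of the features tested, and they did not overlap with PT higher for 0 of the 6 genes and 6.95% of features. *Zfp521* remained the most abundant of the 6 genes in each PT library. Its ratio to *Zfp423* was no longer even, at 15.9, 2.76, 20.8 and 8.14 in PT1 to PT4, so that it was higher than in AstroEGFR in 3 PT libraries and lower in PT2.

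*Ebf1* stood at 0.117, 0.540, 2.39 and 0.407 FPKM in PT1 to PT4. PT3 exceeded AstroEGFR 1, so the groups overlapped. On the log2(FPKM + 1) scale the mean was 0.76 ± 0.70 (SD, n = 4) against 2.34 ± 1.41 (SD, n = 3). The difference of -1.58 was the largest of the 6 in size and also the least precise (SE 0.70, 95% interval -3.20 to 0.04, adjusted p of limma 0.379, exact permutation p = 0.114). It was -0.90 without AstroEGFR 3 and -2.31 without AstroEGFR 1.

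The other 3 EBF genes gave smaller or unmeasurable differences. *Ebf2* was at 0.0160, 0.194 and 0.0189 FPKM in PT1, PT2 and PT4 and was listed at 0 in PT3. Its difference of -0.89 (SE 0.59, 95% interval -2.31 to 0.53, adjusted p of limma 0.630) had an interval that holds 0, and AstroEGFR 1 and 2 lay within the range of PT, so that AstroEGFR 3 alone was higher. *Ebf3*, the neuronal member, was listed at 0 in PT1 and at 0.723, 0.0742 and 0.227 FPKM in PT2 to PT4, against at most 0.0324 FPKM in AstroEGFR. The difference was 0.28 (SE 0.18, 95% interval -0.16 to 0.71, adjusted p of limma 0.620). *Ebf4* was at 1.26, 2.63, 4.09 and 2.11 FPKM. PT1 lay within the AstroEGFR range and the other 3 above it, with a difference of 0.38 (SE 0.37, 95% interval -0.47 to 1.23, adjusted p of limma 0.726, exact permutation p = 0.286). This difference was 0.18 without PT3, 0.23 without AstroEGFR 2 and 0.57 without PT1.

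The amount and makeup of EBF mRNA overlapped between the groups and are given as a description, with no test. The FPKM of the 4 EBF genes summed to 2.76, 5.62 and 19.0 in AstroEGFR and to 1.39, 4.09, 6.56 and 2.76 in PT. *Ebf4* made up 62.8%, 19.9% and 10.7% of the sum in AstroEGFR 1 to 3 and 90.4%, 64.4%, 62.4% and 76.3% in PT1 to PT4. *Ebf4* was thus the largest part in every PT library and in AstroEGFR 1, and *Ebf1* the largest part in AstroEGFR 2 and 3, with 79.0% and 63.2%. AstroEGFR 1 and PT3 were thus alike in this share.

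**Figure D2:**
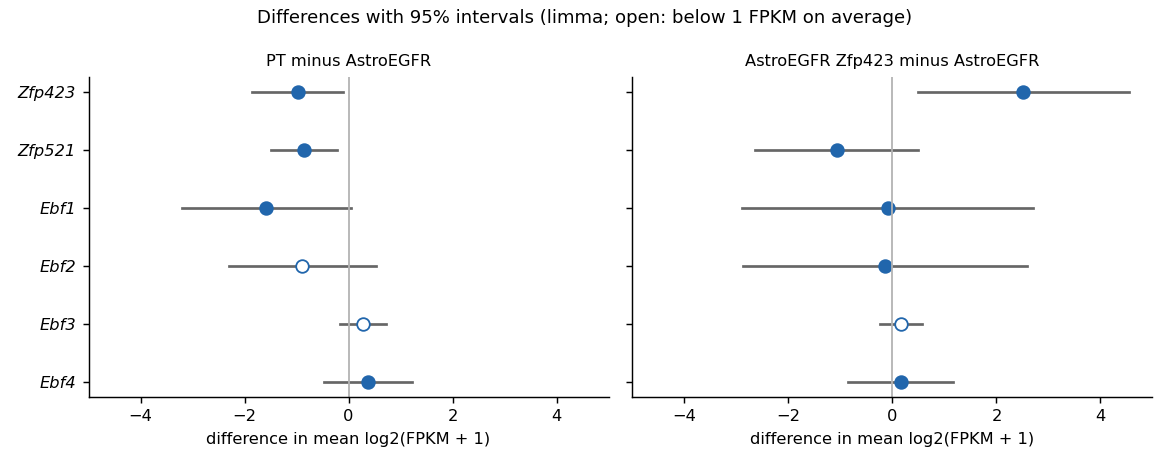
Difference in mean log2(FPKM + 1) between groups for each of the 6 genes, with the 95% interval from limma as a horizontal line, for PT minus AstroEGFR (left) and AstroEGFR Zfp423 minus AstroEGFR (right). Open circles are genes with a mean below 1 FPKM, fitted without the minimum level. The intervals of Zfp423 and Zfp521 lie below 0 on the left, and only that of Zfp423 lies away from 0 on the right, at 0.49 to 4.54.

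Within astrocyte batches, *Zfp423*, *Zfp521* and *Ebf1* were each lower in all 4 PT libraries than in the AstroEGFR library of the same batch, which held for 18.2% of all features tested. PT1 and PT4 share 1 AstroEGFR library, so these are not 4 independent pairs. The differences in log2(FPKM + 1) for *Zfp423* were -1.53, -0.17, -1.45 and -0.94 in PT1 to PT4, so PT2 stood apart with little change. For *Zfp521* they were -0.93, -1.29, -0.59 and -0.83, and PT2 had the largest fall. For *Ebf1* they were -0.72, -1.82, -1.94 and -0.39. As ratios of FPKM, AstroEGFR over PT, these are 7.17, 8.21, 5.01 and 2.07 in PT1 to PT4. *Ebf2* was lower in 3 of 4, with -2.56 in PT3 and -0.21 in PT1 and PT4, and 0.16 higher in PT2. *Ebf4* was 0.78, 0.75 and 0.19 higher in PT2, PT3 and PT4 and 0.27 lower in PT1 by the same measure (-0.27). With the batch as a block in limma, the differences were -0.98 for *Zfp423*, -0.92 for *Zfp521* and -1.35 for *Ebf1*, with adjusted p-values of 0.165, 0.0614 and 0.107.

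The AstroEGFR Zfp423 libraries were compared with AstroEGFR to ask what followed at these genes when *Zfp423* was raised, with the astrocyte batch as a block in limma. *Zfp423* itself was higher in each vector library, and no other member moved in a way that held across the 3 batches beyond the spread. None of the 6 genes passed an adjusted p of 0.05, and 0 of 12366 features did (0% called), while 7.38% had an unadjusted p below 0.05, *Zfp423* among them. The AstroEGFR libraries are the same as in the comparison with PT, so both sets of differences share their controls. All but *Ebf3* reached the minimum level here.

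*Zfp423* stood at 15.7, 9.73 and 105 FPKM in AstroEGFR Zfp423 1, 2 and 3, which is 3.64, 2.99 and 30.2 times the FPKM of the parental library. Each vector library exceeded every parental one, and batch 3 stood far above the other 2. Reads from the vector and from the cell's own gene cannot be told apart in these values. On the log2(FPKM + 1) scale the mean was 4.74 ± 1.75 (SD, n = 3) and the difference 2.52 (SE 0.74, 95% interval 0.49 to 4.54), or 1.49 without batch 3. The adjusted p of limma was 0.628. The exact sign-flip permutation test gave p = 0.25, the smallest value that 3 pairs allow. Groups without overlap and with the vector libraries higher were seen for 5.68% of features tested, and with the vector libraries lower for 5.87% of them and for 0 of the 6 genes.

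*Zfp521* stood at 29.0, 2.69 and 11.2 FPKM in the vector libraries. It was level with its parent in batch 1, with a log2(FPKM + 1) difference of 0.13, and lower in batches 2 and 3, with -2.52 and -0.83. The 3 libraries ranged over 10.8-fold, against 1.31-fold in AstroEGFR, and the mean difference was -1.07 (SE 0.57, 95% interval -2.64 to 0.49, adjusted p of limma 0.661). It was -0.35 without batch 2 and -1.67 without batch 1. The ratio of *Zfp521* to *Zfp423* was 1.85, 0.276 and 0.106, below that of any AstroEGFR or PT library. *Zfp423* was the most abundant of the 6 genes in batches 2 and 3, and *Zfp521* remained so in batch 1.

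*Ebf1* and *Ebf2* moved in opposite directions in batches 1 and 3. *Ebf1* stood at 8.59, 4.15 and 1.19 FPKM, which is a log2(FPKM + 1) difference of 2.38 in batch 1, -0.080 in batch 2 and -2.57 in batch 3. *Ebf2* stood at 3.48 and 0.233 FPKM in batches 1 and 2 and was listed at 0 in batch 3, with differences of 1.93, 0.21 and -2.56. A change of at least 1 in each direction between batches was seen for 9.35% of the features tested. The mean differences were -0.09 for *Ebf1* (SE 1.03, 95% interval -2.88 to 2.71, adjusted p of limma 0.986) and -0.14 for *Ebf2* (SE 1.00, 95% interval -2.87 to 2.59, adjusted p of limma 0.978). That of *Ebf2* was -1.18 without batch 1 and -0.32 without batch 2. These intervals are wide, and a change of several fold in either direction lies within them. With 1 library per batch and group, the difference between batches was not tested.

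*Ebf4* stood at 1.84, 1.21 and 2.87 FPKM in the vector libraries and was 0.06, 0.06 and 0.35 higher than its parent on the log2(FPKM + 1) scale. A higher level in all 3 batches was seen for 16.3% of features tested, and a lower one for 15.2% of them and for 0 of the 6 genes. The mean difference was 0.16 (SE 0.37, 95% interval -0.85 to 1.17, adjusted p of limma 0.917), and 0.06 without batch 3. *Ebf3* was at 0.438 and 0.0158 FPKM in batches 1 and 2 and was listed at 0 in batch 3, with a difference of 0.16 (SE 0.14, 95% interval -0.23 to 0.56, adjusted p of limma 0.793).

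**Figure D3:**
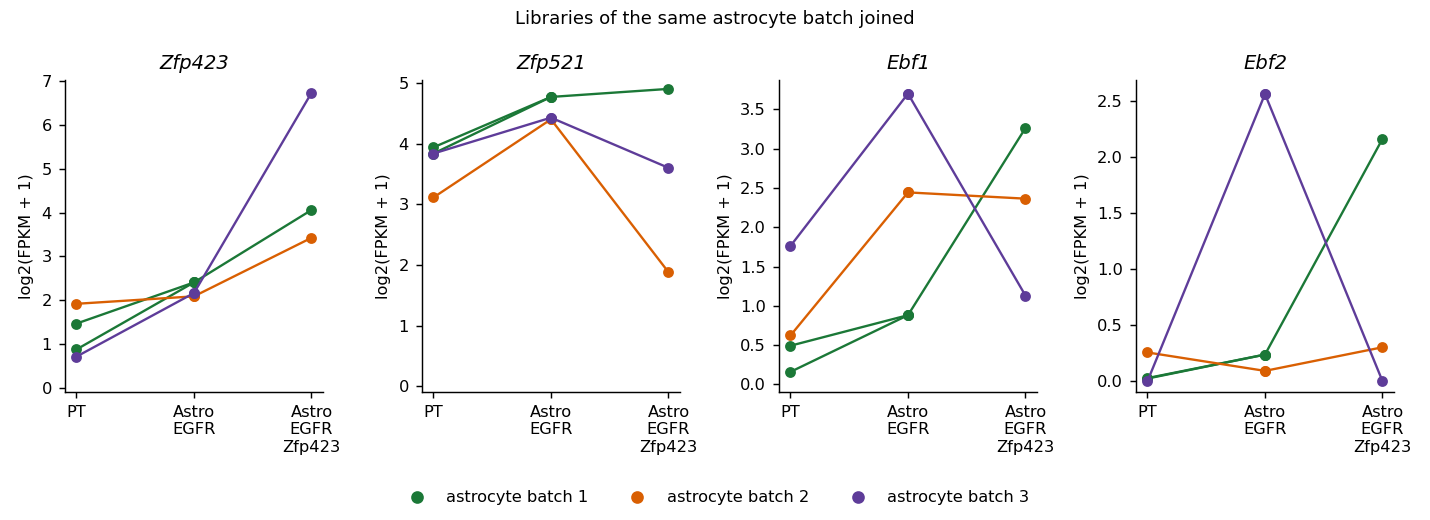
Level of Zfp423, Zfp521, Ebf1 and Ebf2 as log2(FPKM + 1) on the y axis, with lines joining libraries of the same astrocyte batch across PT, AstroEGFR and AstroEGFR Zfp423 on the x axis. Batch 1 has 2 PT libraries. The lines of Ebf1 and Ebf2 rise in batch 1 (2.38 and 1.93) and fall in batch 3 (-2.57 and -2.56) from AstroEGFR to AstroEGFR Zfp423.

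Markers of other cell types were read beside these values, since *Ebf1* and *Ebf2* are also made by mesenchymal cells. In bulk RNA, fewer cells of a type and less RNA per cell cannot be told apart. The summed FPKM of 14 fibroblast and meningeal markers was 512, 620 and 5408 in AstroEGFR 1 to 3, 122, 59.4, 658 and 156 in PT1 to PT4, and 4614, 6353 and 393 in the vector libraries. AstroEGFR 3 and AstroEGFR Zfp423 1 and 2 were thus the 3 highest. AstroEGFR 3 and AstroEGFR Zfp423 1 were also the 2 highest libraries for both *Ebf1* and *Ebf2*, whereas AstroEGFR Zfp423 2, with the highest marker sum, had *Ebf1* at 4.15 FPKM and *Ebf2* at 0.233 FPKM. In AstroEGFR Zfp423 3, where both EBF genes were lower than in the parent, 4 of the 14 markers were listed at 0 (*Dcn*, *Lum*, *Foxd1* and *Slc6a13*, the last also in the parent). In PT against AstroEGFR, 12 of the 13 tested fibroblast markers had a negative difference, with a median of -2.07, and 0 passed the adjusted p of limma. With the batch block *Col1a1* and *Col1a2* passed, and without PT3 *Col1a2* passed. The part of such cells in the values of *Ebf1* and *Ebf2* was not tested.

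Microglia and macrophage markers were high in 2 of the 3 vector libraries. The summed FPKM of 12 of them was 21.4, 7.73 and 41.2 in AstroEGFR, 0.261 to 2.73 in PT, and 2005, 1230 and 0.156 in AstroEGFR Zfp423 1, 2 and 3. In AstroEGFR Zfp423 3, 7 of the 12 were listed at 0, among them *Aif1*, *C1qa* and *Trem2*, and in AstroEGFR Zfp423 1 and 2 none was below 1 FPKM. All 12 had a positive mean difference in the vector comparison, with a median of 3.29, and 0 passed the adjusted p. In PT 1 of them, *Tmem119*, was tested, and it passed as lower with the batch block only. The 10 astrocyte markers all had a negative difference in the vector comparison, with a median of -1.58 and 0 called. Without batch 2 that median was -0.59, and 8 of the 10 were negative. In PT they were split 5 to 5, with a median of -0.21 and 0 called. With the batch block *Aqp4* passed as lower in PT, and the median was -0.41.
The remaining marker lists bear on pericytes, endothelium, oligodendrocytes and neurons. Mural cell markers summed to 31.6 to 89.1 FPKM in AstroEGFR, 5.20 to 74.6 in PT and 11.9 to 151 in the vector libraries. Of the 4 tested in PT, *Pdgfrb* passed. The 8 endothelial markers summed to at most 3.40 FPKM in any library and none reached the minimum level. The oligodendrocyte lineage markers summed to 1432 and 1796 FPKM in PT1 and PT4, the PT libraries of batch 1, and to between 66.5 and 311 FPKM in the other 8. Of 8 tested in PT, 6 had a positive difference, 0 were called and the median was 0.87. The neuron markers summed to at most 19.4 FPKM.

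**Figure D4:**
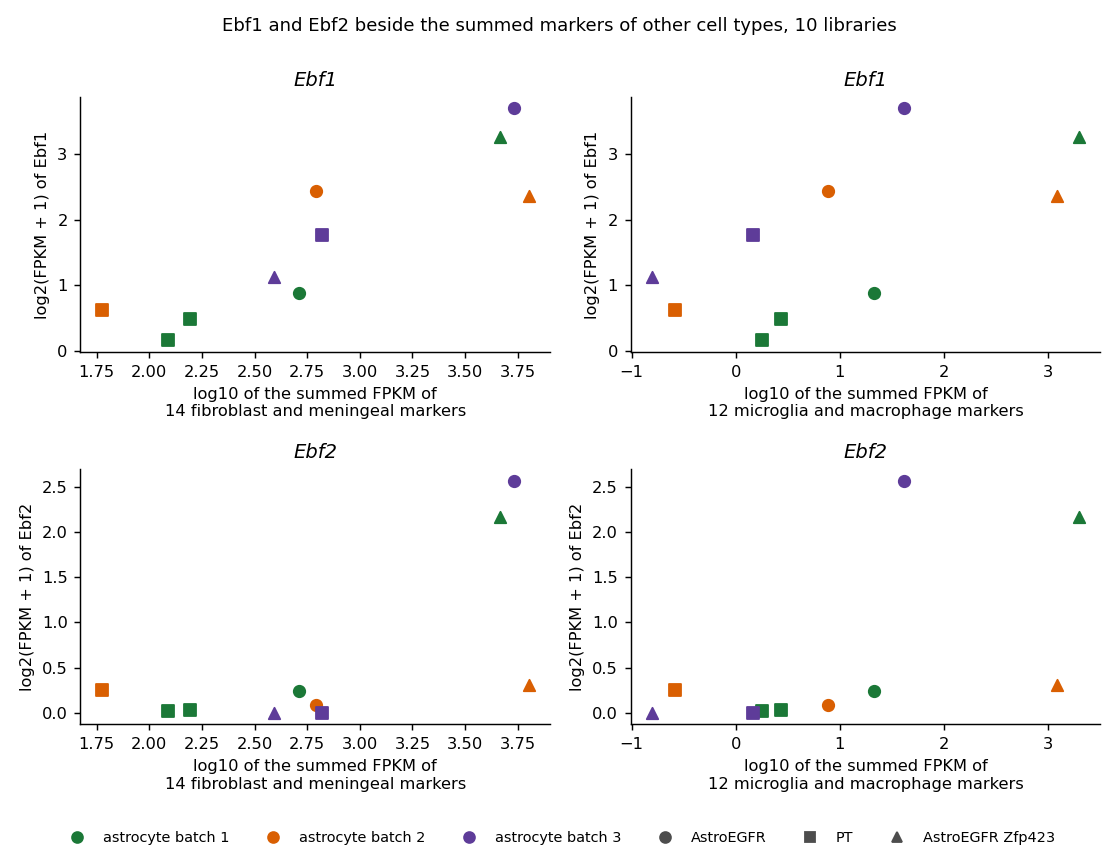
Level of Ebf1 (top) and Ebf2 (bottom) as log2(FPKM + 1) on the y axis against the log10 of the summed FPKM of 14 fibroblast and meningeal markers (left) or 12 microglia and macrophage markers (right) on the x axis. Each symbol is 1 of 10 libraries, with shape for the group and colour for the astrocyte batch. AstroEGFR 3 and AstroEGFR Zfp423 1 are highest for both genes, at fibroblast sums of 5408 and 4614 FPKM, and AstroEGFR Zfp423 2 has a sum of 6353 FPKM with Ebf1 at 4.15 FPKM and Ebf2 at 0.233 FPKM.

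Genes that act with ZFP423 or the EBF factors were followed by their roles. ZFP423 works with SMADs, so 24 genes of BMP signalling came first. In PT, 22 were tested, 4 were lower and 0 higher (against 0.922% and 0.318% of all features), 17 had a negative difference and the median was -0.96 against 0.03 over all features. The 4 that fell include both inhibitory SMADs. *Smad6* stood at 26.3, 14.4 and 16.8 FPKM in AstroEGFR and at 0.25, 0.621 and 0.394 FPKM in PT1, PT2 and PT4, and was listed at 0 in PT3. Its difference was -3.92 (SE 0.32, adjusted p of limma 0.00483). *Smad7*, the second inhibitory SMAD, fell from 9.98 to 16.9 FPKM in AstroEGFR to between 1.43 and 2.46 FPKM in PT, with a difference of -2.21 on the log2(FPKM + 1) scale (SE 0.28, adjusted p of limma 0.0156).
*Bmp4*, a ligand, stood at 10.1, 3.14 and 5.69 FPKM in AstroEGFR and at most at 0.364 FPKM in PT. The difference was -2.53 (SE 0.40, adjusted p of limma 0.0324). *Atoh8*, a transcription factor induced by BMPs, stood at 91.7, 27.4 and 9.61 FPKM in AstroEGFR and at most at 0.923 FPKM in PT, with a difference of -4.49 (SE 0.69, adjusted p of limma 0.0285). With the batch block, which called 475 of the 12261 features, *Id3* and *Id4*, which encode inhibitors of differentiation, passed as well. With each library left out in turn, an alternative chosen after seeing the data, the number of these genes called lower ranged from 0 without AstroEGFR 1 to 3 without AstroEGFR 3. *Smad6* passed in 6 of the 7 fits (adjusted p of limma 0.0516 without AstroEGFR 1). *Smad7* passed in 4, losing its call without AstroEGFR 1, AstroEGFR 2 or PT4. *Bmp4* and *Atoh8* passed in 1 fit each, *Bmp4* without AstroEGFR 2 and *Atoh8* without AstroEGFR 3, and all 4 differences stayed negative.
In the vector libraries 0 of 21 tested genes of this list were called. Their median was -0.83, against 0.02 over all features, and 17 of 21 had a negative difference. *Atoh8* had the largest, at -2.93, with 6.89, 1.56 and 2.11 FPKM, and *Grem1*, a secreted BMP antagonist, was the one most above its parents, at 2.67, with 6.95, 19.4 and 36.0 FPKM. The adjusted p of limma was 0.628 for both.

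The NuRD complex, a nucleosome remodelling and deacetylase complex, showed no call among its 13 subunits in either comparison. The median was -0.13 in PT and 0.13 in the vector libraries. *Chd3*, a remodelling ATPase of the complex, had the largest difference in PT, -2.11 (adjusted p of limma 0.132), without overlap, and *Mta3* followed with -0.56. *Mbd3* and *Hdac1* had the largest in the vector libraries, -1.13 and -0.68.
Of 14 further reported partners and co-regulators, which include Notch, retinoic acid receptor and Gli proteins, 13 were tested and 0 called in each comparison, with medians of -0.17 and 0.01. *Gli1* and *Gli3*, factors of hedgehog signalling, differed most in PT, by -1.99 and -1.26, and *Rarb* and *Gli1* in the vector libraries, by -0.92 and -0.89.

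Among the 19 genes of the fat cell lineage, on which ZFP423 and EBF2 act, 11 were tested in PT and 2 were lower, against 0.922% of all features, with a median of -0.22 against 0.03 over all features. *Pdgfrb*, a receptor of mesenchymal precursors and pericytes, stood at 42.1, 27.9 and 65.7 FPKM in AstroEGFR and at 1.91, 0.182, 4.94 and 0.849 FPKM in PT (difference -4.14, SE 0.57, adjusted p of limma 0.0200). *Klf5*, a factor that acts early in fat cell differentiation, stood at 10.7, 4.65 and 8.81 FPKM against 1.02, 1.04, 1.99 and 0.940 FPKM (difference -1.97, SE 0.35, adjusted p of limma 0.0482). With each library left out in turn, *Pdgfrb* passed in 4 of the 7 fits, losing its call without AstroEGFR 1, AstroEGFR 3 or PT4. *Klf5* passed in 1, without AstroEGFR 2, and both differences stayed negative. The median of the list ranged from -0.58 without PT4 to 0.30 without PT3.
In the vector libraries 11 of the 12 tested genes of this list had a negative difference, 0 were called and the median was -0.43. *Prdm16*, a regulator of brown fat, and *Klf5* differed most, by -1.27 and -0.90.

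Most of the B lineage genes that EBF1 controls were below the minimum level. Of 12, 2 were tested in each comparison and 0 called. *Foxo1*, which is also used in many other cells, differed by -1.27 in PT (adjusted p of limma 0.141) and passed with the batch block. In the vector libraries it stood at 10.3, 3.40 and 8.58 FPKM, below the AstroEGFR range of 14.1 to 27.7 FPKM, with a difference of -1.40 (SE 0.26, adjusted p of limma 0.628). *Cd53*, a leukocyte tetraspanin, differed by -1.37 in PT and by 2.42 in the vector libraries (adjusted p of limma 0.710), where it stood at 34.4, 46.7 and 0.840 FPKM in batches 1, 2 and 3, high in the same 2 libraries as the microglia markers.
Of 18 neuronal differentiation genes that act with or after EBF factors, 8 were tested in PT, 7 of them with a positive difference and a median of 0.99, and 0 were called. *Chl1*, an adhesion molecule, had the largest, 3.58 (adjusted p of limma 0.204), with 0.162, 0.358 and 0.221 FPKM in AstroEGFR and 3.33, 96.8, 2.84 and 29.5 FPKM in PT1 to PT4, and *Nefm*, a neurofilament gene, followed with 1.99. In the vector libraries 5 were tested and 0 called, with a median of -0.83, and *Stmn2*, a gene of growing neurites, differed by -1.73.

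The features whose levels ran most like those of a member were taken over the 7 AstroEGFR and PT libraries, by Pearson r of log2(FPKM + 1) among 12148 features. With 7 points that share groups and library kind these are descriptions, and r of at least 0.9 was reached by 36 features for *Zfp423*, 211 for *Zfp521*, 62 for *Ebf1* and 103 for *Ebf4*. For *Zfp423* the first 3 were *Tmem62* (r = 0.974), *Cyld* (r = 0.967) and *Pitpnm1* (r = 0.964). *Tmem62* stood at 8.71, 8.92 and 9.12 FPKM in AstroEGFR and at 2.54, 7.38, 2.70 and 4.04 FPKM in PT. For *Zfp521* they were *Fam167a* (r = 0.994), *2610203C20Rik* (r = 0.989) and *Wwc1* (r = 0.985). *Fam167a* stood at 16.1, 8.65 and 8.69 FPKM in AstroEGFR and at 1.94, 0.0606, 1.87 and 3.02 FPKM in PT. For *Ebf1* they were *Tbc1d19* (r = 0.976), *Rg9mtd2* (r = 0.974) and *Vav2* (r = 0.971), and for *Ebf4*, whose levels overlapped between the groups, *Atg7* (r = 0.993), *Tspyl5* (r = 0.985) and *Sgtb* (r = 0.980). *Ebf2* and *Ebf3* were below the minimum level for this measure.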

How the data were processed

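RNAseq libraries of 3 AstroEGFR, 4 PT and 3 AstroEGFR Zfp423 cultures were used. The authors deposited 1 matrix of FPKM, for which the submitters' processing notes name Cuffnorm, TopHat 1.3 and mm9. The labels name a TruSeq RNA kit, the study ribosomal RNA removal and stranded libraries. All 10 columns were used. Groups came from the labels, and the astrocyte batch from the titles for AstroEGFR and AstroEGFR Zfp423 and from the study for PT. The matrix holds no counts, so count models were not run.

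Group differences in log2(FPKM + 1) were estimated with limma 3.58.1 (R 4.3.3) over features whose mean in the libraries compared reached 1 FPKM, by empirical Bayes with a trend and Benjamini-Hochberg adjustment at 0.05. PT was compared without a block, and AstroEGFR Zfp423 with the astrocyte batch as a block. Fold changes on this scale understate those of low genes. Single genes were also tested by exact two-sided permutation (35 arrangements of 3 against 4 libraries, or 8 sign flips of 3 pairs). The pairing rests on the shared astrocyte batch, and the deviations of same-batch libraries from their group means correlated at 0.275, -0.159 and -0.310 for the vector libraries of batches 1 to 3, and at 0.287, 0.145, 0.436 and 0.380 for PT1 to PT4. Each p-value measures the spread between these cultures. PT1 and PT4, both from batch 1, entered the PT fit without a block and its permutation as separate cultures.

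The 6 genes, the 13 lists (7 of them cell type markers) and the tests were chosen with earlier results of these data known. Named were the 6 genes, each list gene that was called or otherwise the 2 tested genes with the largest difference, and the 3 features most like each member. 1 gene that this rule names is not reported here. Marker genes were instead given mainly as sums, and those named singly, *Gapdh* and *Xist* were chosen after their values were seen. Alternatives were a pseudocount of 0.1, no minimum level, other scalings (median ratio, or without small RNAs and histones), no trend, the fit with or without the block, all libraries in 1 fit, PT1 and PT4 averaged, and each library left out. Promoter sequences are from RefSeq GRCm38.p6 and were not used with mm9 coordinates.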

Additional observations from a re-analysis of the deposited data

Results flagged for a closer look

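In PT, 2 of the 6 genes had 1 library far from the other 3, by the gap to the nearest library over the whole range of log2(FPKM + 1). Both gaps exceed the 95% critical value of Dixon for 4 samples. Chance gives such a library in about 1 in 20 groups. Of the 12261 features tested between PT and AstroEGFR, 6.98% had 1 PT library that far apart, and for 3.47% it was PT2, more than for any other PT library. For both genes it was PT2. For *Zfp521*, PT2 was lowest, at 7.66 FPKM against 13.3 to 14.4 FPKM, with a gap of 0.876 of the range. For *Ebf2*, PT2 was highest, at 0.194 FPKM against at most 0.0189 FPKM, with a gap of 0.894 of the range, all of it at levels near 0.

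With the vector, the change in *Ebf1* differed between astrocyte batches, at 2.38, -0.080 and -2.57 on the log2(FPKM + 1) scale in batches 1, 2 and 3. The change in *Ebf2* did so too, at 1.93, 0.21 and -2.56. Each batch holds 1 library per group, so the difference between batches was not tested. The summed fibroblast markers moved from 512 to 4614 FPKM in batch 1, from 620 to 6353 FPKM in batch 2 and from 5408 to 393 FPKM in batch 3, and their part in these changes was not tested.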

How the results depend on the processing

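None of the 6 genes passed the adjusted p in either comparison under any alternative run. The features called between PT and AstroEGFR, 152 as reported, numbered 82 with all 10 libraries in 1 fit, 59 with PT1 and PT4 averaged, 475 with the replicate block, and between 7 (without AstroEGFR 1) and 123 with each library left out. Without AstroEGFR 3, PT1, PT2 or PT4 they numbered 54, 97, 70 and 58. The block lowered the adjusted p of *Zfp521* to 0.0614, its lowest value, against a highest of 0.567. That of *Zfp423* ranged from 0.165 to 0.613 and of *Ebf1* from 0.107 to 0.679, with negative differences throughout. In the vector comparison, 0 features as reported became 2 with no replicate block, the small RNAs *Mir1907* and *Snord111*, and 0 to 51 with each batch left out, the 51 without batch 2. No paired fit changed the call of a member. Of the 6 genes of the partner and downstream lists called in PT, *Bmp4*, *Atoh8* and *Klf5* kept their call in 1 of the 7 fits that left out a library. The difference of *Ebf1* in the vector libraries, -0.09, ranged from -1.32 without batch 1 to 1.15 without batch 3 (adjusted p of limma 0.510), the batch in which it fell. *Ebf2* and *Ebf3* in PT and *Ebf3* in the vector libraries have only the fit without the minimum level, so no alternative gave them a value, nor did leaving out batch 3 for *Ebf2* in the vector libraries. Without counts, the precision of levels below 1 FPKM is unknown.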
